A study of Homo sapiens with 12 samples.

Results

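The AP-1 family examined here comprises 7 genes, FOS, FOSB, FOSL1, FOSL2, JUN, JUNB and JUND, taken by symbol from a table of 53717 genes. All 7 were found, and all 7 passed the filter on low counts, as did 17264 genes in all. The cells were H9, an established human embryonic stem cell line, grown in RSeT medium, a commercial medium for naive-type culture. They were lipofected with 1 of 3 fluorescein-labelled oligonucleotides at 25 nM: ASO-L1, antisense to the RNA of the LINE1 retrotransposon, sO-L1, the sense oligo of the same element, or ASO-Ctr, a non-targeting antisense oligo. All 3 groups also received 0.7 uM Trans-ISRIB, 5 uM emricasan (a caspase inhibitor) and 10 uM Y-27632 (a ROCK inhibitor), removed after 24 h, and labelled cells were sorted at 48 h, so each value is an average over sorted cells of a single line. There were 4 libraries per group, 12 in all, and the labels do not say that these were separate cultures, so p-values measure only the spread between these samples, which may be technical.

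AP-1 is a family of dimeric transcription factors joined through a basic leucine zipper (bZIP). JUN proteins pair with each other or with FOS proteins, whereas FOS proteins bind DNA as partners of JUN proteins, and the dimers recognise the sequence TGANTCA (the TPA response element) or a closely related site. FOS, FOSB, JUN and JUNB are immediate early genes, switched on by growth factors and stress through MAP kinases, and their mRNAs decay quickly. FOSL1 (FRA-1) and FOSL2 (FRA-2) usually follow later and are themselves targets of AP-1. JUND is expressed more steadily. In mouse cells, JUN is known to hinder reprogramming to pluripotency.

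The promoters of JUN and FOSL2, which rose with ASO-L1, and of FOS, which fell against ASO-Ctr, are given first so that their sites can be compared. They are RefSeq sequences of GRCh38.p14, 250 bases before to 50 bases after the annotated start, read 5′ to 3′ along the gene. The capitals mark matches on either strand to TGANTCA, to TGACNTCA (the 8-base form, a cyclic AMP response element or its JUN variant) and to TGACGT (the core of that element). The JUN promoter is chr1:58783998-58784297, minus strand, that of FOSL2 is chr2:28392608-28392907, plus strand, and that of FOS is chr14:75278578-75278877, plus strand.
JUN: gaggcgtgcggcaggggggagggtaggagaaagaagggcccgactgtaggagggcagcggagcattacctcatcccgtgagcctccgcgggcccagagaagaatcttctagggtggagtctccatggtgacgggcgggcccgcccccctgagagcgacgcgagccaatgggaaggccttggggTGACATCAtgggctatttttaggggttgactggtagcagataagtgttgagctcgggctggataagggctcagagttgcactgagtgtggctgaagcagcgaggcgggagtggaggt
FOSL2: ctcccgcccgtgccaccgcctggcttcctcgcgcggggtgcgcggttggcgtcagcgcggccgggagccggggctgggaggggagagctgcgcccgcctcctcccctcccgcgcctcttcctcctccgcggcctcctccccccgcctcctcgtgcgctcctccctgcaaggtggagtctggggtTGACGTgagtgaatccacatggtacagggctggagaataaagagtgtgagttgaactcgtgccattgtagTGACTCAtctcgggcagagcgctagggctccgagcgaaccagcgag
FOS: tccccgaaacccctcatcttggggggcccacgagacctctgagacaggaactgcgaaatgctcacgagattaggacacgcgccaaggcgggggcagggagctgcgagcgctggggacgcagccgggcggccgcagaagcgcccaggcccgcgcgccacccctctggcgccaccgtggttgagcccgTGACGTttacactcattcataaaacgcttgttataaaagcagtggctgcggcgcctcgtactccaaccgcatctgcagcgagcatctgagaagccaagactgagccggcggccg

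Promoters were found for 6 of the 7 genes, FOSL1 having none in the table. The JUN window holds TGACATCA at -67 to -60 relative to the start, and the FOSL2 window holds TGACTCA at 5 to 11 after it together with TGACGT at -66 to -61. FOS and FOSB share a layout, with TGACGT at -64 to -59 and -60 to -55 and TATAAA at -33 to -28 and -30 to -25. JUND has the palindrome TGACGTCA at -200 to -193, which contains TGACGT on both strands, and a further TGACGT on the reverse strand at -87 to -82. JUNB has TATAAA at -31 to -26 and no match to the other 3. Of 35116 promoters of the same length, 7.71% hold TGANTCA, 7.72% TGACNTCA, 7.98% TGACGT and 11.5% TATAAA. The CArG box, bound by serum response factor, occurs in 1.29% of promoters and in 0 of these 6 windows. The windows begin 250 bases before the start, so a CArG box further upstream would not be counted for any gene, FOS included. These matches are descriptions of letters and not evidence of binding.

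**Figure D1:**
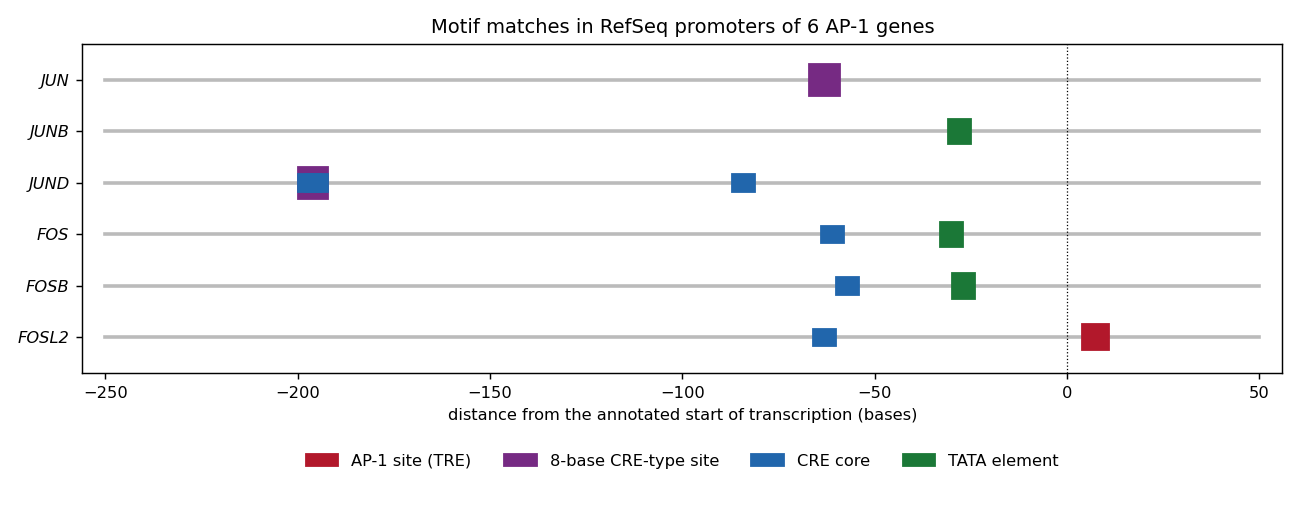
Positions of motif matches (coloured boxes) in the promoters of 6 AP-1 genes; the x axis is the distance in bases from the annotated start (dotted line) and each grey line is the 300-base window of a gene. The JUN, FOS, FOSB and FOSL2 windows each hold a match to the 8-base site or its core between -67 and -55, and the FOSL2 window alone of the 6 holds TGANTCA.

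Library depth was 22.8 to 55.1 M reads in genes, giving a floor of 0.0545 to 0.131 CPM (counts scaled to library size) for 3 reads, the limit set by a count of 0. Mitochondrial genes took 5.59 to 6.48% of reads. Intervals rest on counting error and the spread between these libraries, and floors on counting error alone. The counts are those after the authors' removal of duplicates, which compresses abundant genes. Neither intervals nor floors account for that, or for any PCR copies left, which are not separate molecules, when no molecular identifier marks them. The target of ASO-L1 has no entry in the table, so its level was not analysed here. The labelled cell type was checked on 14 pluripotency markers, all of them passing the filter, whose summed level was 11281 to 11712 CPM in ASO-L1 libraries, 12503 to 13113 CPM in sO-L1 libraries and 12753 to 12890 CPM in ASO-Ctr libraries. Summed fibroblast markers were at 125 to 147 CPM with ASO-L1, 122 to 150.3 CPM with sO-L1 and 132 to 158 CPM with ASO-Ctr. Trophectoderm and amnion markers summed to 54.7 to 66.7 CPM (ASO-L1), 52.8 to 64.0 CPM (sO-L1) and 52.6 to 61.1 CPM (ASO-Ctr). Mesoderm and primitive streak markers summed to 18.6 to 31.1 CPM (ASO-L1), 15.3 to 19.6 CPM (sO-L1) and 14.2 to 18.2 CPM (ASO-Ctr). Endoderm markers summed to 14.6 to 22.7 CPM (ASO-L1), 23.4 to 31.4 CPM (sO-L1) and 21.7 to 28.3 CPM (ASO-Ctr), and neuroectoderm markers to 590.1 to 659 CPM (ASO-L1), 478 to 584 CPM (sO-L1) and 448 to 509 CPM (ASO-Ctr). In ASO-L1 against ASO-Ctr, where 21.2% of all genes were called higher and 23.1% lower, edgeR called 2 of 14 pluripotency markers higher and 6 lower, 2 of 7 tested fibroblast markers higher and 2 lower, 1 of 6 trophectoderm and amnion markers higher, 1 of 2 mesoderm markers higher, 1 of 4 endoderm markers higher and 1 lower, and 2 of 3 neuroectoderm markers higher. The fibroblast markers moved in both directions: TWIST1 was at 3.89 ± 2.69 CPM (ASO-L1) against 0.311 ± 0.279 CPM (ASO-Ctr) and THY1 at 73.6 ± 6.04 CPM (ASO-L1) against 54.8 ± 1.28 CPM (ASO-Ctr), while PDGFRA was at 8.19 ± 0.774 CPM (ASO-L1) against 15.3 ± 0.562 CPM (ASO-Ctr) and COL1A2 at 36.6 ± 4.65 CPM (ASO-L1) against 61.3 ± 8.71 CPM (ASO-Ctr). PDGFRA is also 1 of the 8 endoderm markers, so its fall enters both lists. Of the other endoderm markers, FOXA2 was at 2.52 ± 0.986 CPM (ASO-L1) against 1.22 ± 0.991 CPM (ASO-Ctr). CXCR4 was at 7.64 ± 3.34 CPM (ASO-L1) against 8.04 ± 2.79 CPM (ASO-Ctr). Pluripotency markers also moved in both directions. DNMT3B was at 1764 ± 169 CPM (ASO-L1) against 2505 ± 154 CPM (ASO-Ctr), LIN28A at 1743 ± 91.9 against 2032 ± 81.8, and TERF1 at 518 ± 55.6 against 793 ± 59.9. DPPA4 was at 1417 ± 72.6 CPM (ASO-L1) against 1245 ± 31.7 CPM (ASO-Ctr). POU5F1 (1238 ± 60.9 against 1168 ± 63.3 CPM) and NANOG (144 ± 8.08 against 139 ± 10.9 CPM) overlapped between these groups. Of these lists, LUM of 11 fibroblast markers and CDX2 of 12 trophectoderm and amnion markers were at 0 in all libraries, and 0 of the 14 pluripotency, 8 mesoderm, 8 endoderm and 8 neuroectoderm markers were. The part of such shifts in the AP-1 results was not tested, and fewer cells of a type cannot be told apart from less RNA per cell.

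The first comparison sets ASO-L1 against the non-targeting ASO-Ctr. JUN, JUND, FOSL1 and FOSL2 rose, FOS fell, and JUNB and FOSB did not pass the test. The quasi-likelihood test of edgeR, blocked on replicate number and adjusted by Benjamini-Hochberg over 17264 genes at 0.05, called 5 of the 7 genes, against 44.3% of all genes. It called 4 of 7 higher, where 21.2% of all genes were called higher, and 1 of 7 lower, where 23.1% were. The rises of JUN, FOSL1 and FOSL2 exceeded 2-fold, and 3.91% of all genes were called with a change over 2-fold in either direction. The median log2 fold change of the 7 genes was 0.30, beside 0.00 over all genes tested. All gene p-values below come from this test. Intervals are 95% intervals from its moderated standard errors.

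JUN, the founding member of the JUN group, was at 149.6, 127, 146 and 117 CPM in ASO-L1 replicates 1 to 4, against 60.8, 58.0, 68.6 and 69.6 CPM in ASO-Ctr. Every ASO-L1 library lay above every ASO-Ctr library. Means were 135 ± 15.3 CPM in ASO-L1 libraries against 64.2 ± 5.74 CPM in ASO-Ctr libraries (SD, n = 4 each), a 2.10-fold rise (95% interval 1.90 to 2.33; log2 1.07, SE 0.069, edgeR adjusted p = 1.10e-08). Within replicate numbers 1 to 4 the log2 difference was 1.30, 1.13, 1.09 and 0.75.

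JUND, the steadily expressed JUN protein, was at 71.7, 58.1, 56.2 and 55.0 CPM in ASO-L1 libraries and at 60.2, 43.7, 46.2 and 46.9 CPM in ASO-Ctr libraries. The groups overlapped, because ASO-Ctr replicate 1 lay above 3 of the ASO-L1 libraries, but within each of the 4 replicate numbers ASO-L1 was the higher. The rise was 1.23-fold (1.12 to 1.35; log2 0.30, SE 0.063, edgeR adjusted p = 0.00117).

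JUNB, an immediate early gene that can restrain JUN, was at 7.42, 5.38, 7.84 and 7.33 CPM with ASO-L1 and at 9.03, 5.30, 6.36 and 6.52 CPM with ASO-Ctr. The groups overlapped fully and the log2 difference of 0.053 was not called (edgeR adjusted p = 0.709). Its interval runs from -0.17 to 0.27, so a change beyond 1.21-fold upward lies outside it.

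FOSL1, which encodes FRA-1, had the largest fold change of the family. Its levels were 10.1, 6.33, 4.47 and 3.65 CPM in ASO-L1 replicates 1 to 4 and 1.07, 0.931, 1.13 and 0.725 CPM in ASO-Ctr. The lowest ASO-L1 library stood above the highest ASO-Ctr library, although the ASO-L1 values spread widely and replicate 1 was highest. The rise was 6.02-fold (4.69 to 7.72; log2 2.59, SE 0.17, edgeR adjusted p = 1.25e-08), the 26th largest upward change among all genes tested. Within replicate numbers 1 to 4 the log2 difference was 3.17, 2.69, 1.93 and 2.25. The ASO-Ctr level rests on 25 to 39 reads per library, so the size of the fold is less certain than for JUN.

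FOSL2, which encodes FRA-2, was at 22.9, 18.6, 22.5 and 17.3 CPM with ASO-L1, against 5.18, 5.47, 6.80 and 6.29 CPM with ASO-Ctr. The groups did not overlap. The gene rose 3.41-fold (2.90 to 4.00; log2 1.77, SE 0.11, edgeR adjusted p = 8.50e-09) and was 27th of all genes by p-value, ahead of JUN at 37th and FOSL1 at 41st. Groups that did not overlap were seen in 3 of the 7 genes (JUN, FOSL1 and FOSL2), and in 33.3% of all genes tested.

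FOS, the immediate early partner of JUN, was at 29.6, 29.4, 41.9 and 38.5 CPM in ASO-L1 replicates 1 to 4, against 46.1, 28.4, 54.0 and 46.4 CPM in ASO-Ctr. The groups overlapped, and in replicate 2 the ASO-L1 library was marginally the higher. FOS fell by 0.30 on the log2 scale (SE 0.079, edgeR adjusted p = 0.00549), or 1.23-fold (1.10 to 1.38), lower within 3 of 4 replicate numbers. Without the replicate block the call was lost (adjusted p = 0.190), and the value without any 1 library or replicate number ran from -0.42 to -0.19.

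FOSB, an inducible FOS protein, stayed near the limit of the table. It had 16 to 28 reads per ASO-L1 library, or 1.01, 0.388, 0.894 and 0.609 CPM, and 14 to 30 reads per ASO-Ctr library, or 0.899, 0.716, 0.441 and 0.696 CPM. The log2 difference was 0.034 with an interval from -0.64 to 0.70 (edgeR adjusted p = 0.939), so changes of up to 1.63-fold upward lie inside the interval. FOSB and JUNB lie across from ERCC1 and HOOK2 on the opposite strand in GENCODE 29, and FOSL2 across from the antisense RNA FLJ31356. FOSL2 also overlaps AC104695.3, an intronic RNA on its own strand, which counting by strand would not separate. The libraries keep strand, but the sources used here do not say whether the counting used it, so reads of the opposite-strand pairs may not be fully separated. ERCC1 itself was lower with ASO-L1 than with ASO-Ctr (log2 -0.29, edgeR adjusted p = 0.0159) and HOOK2 was not called against ASO-Ctr (log2 -0.14, edgeR adjusted p = 0.0625), though it was called lower against sO-L1 (log2 -0.16, edgeR adjusted p = 0.0400).

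**Figure D2:**
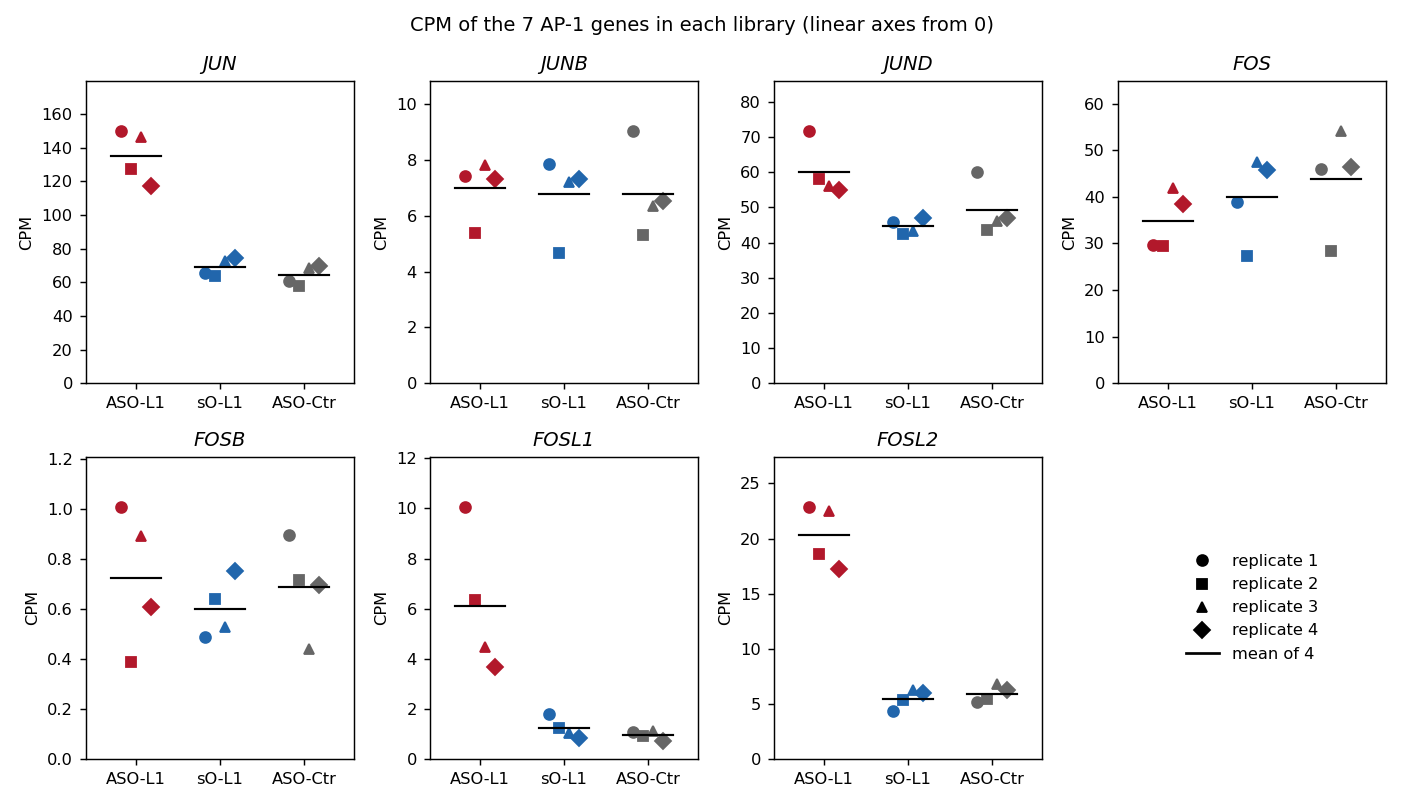
CPM (y axis, linear from 0) of each AP-1 gene in the 12 libraries, by oligo group (x axis); symbols are replicate numbers and black lines are means of 4. JUN, FOSL1 and FOSL2 lie higher in all 4 ASO-L1 libraries than in any other library, while for FOS and JUNB replicate 2 is the lowest of its group in all 3 groups.

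ASO-L1 against sO-L1 sets the antisense oligo against the sense oligo of the same element. The same ASO-L1 libraries enter this comparison, so it is not independent of the one above. JUN, JUND, FOSL1 and FOSL2 were called higher, 4 of 7 against 21.1% of all genes. In all 4 of 7 genes were called, where 44.0% of all genes were. No member was called lower, where 22.9% of all genes were, and 1 member (FOS) was lower at an unadjusted p under 0.05. DESeq2 likewise called 4 higher and 0 lower. Changes over 2-fold were seen in 2 of 7 (FOSL1 and FOSL2), against 3.83% of all genes.

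JUN, at 117 to 149.6 CPM in ASO-L1 libraries, was at 65.4, 63.8, 72.6 and 74.3 CPM in sO-L1 replicates 1 to 4, all under the lowest ASO-L1 library. JUN was 1.96-fold higher with ASO-L1 (1.77 to 2.16; edgeR adjusted p = 3.09e-08). JUND, at 55.0 to 71.7 CPM in ASO-L1 libraries, was at 45.9, 42.4, 43.3 and 46.9 CPM in sO-L1 libraries without overlap, and was 1.34-fold higher with ASO-L1 (1.22 to 1.47; edgeR adjusted p = 4.28e-05).

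FOSL1, at 3.65 to 10.1 CPM in ASO-L1 libraries, was at 1.80, 1.23, 1.03 and 0.818 CPM in sO-L1 libraries. Here too replicate 1 was the highest of its group. FOSL1 was 4.92-fold higher with ASO-L1 (3.89 to 6.22; edgeR adjusted p = 2.70e-08). Within replicate numbers 1 to 4 its log2 difference was 2.44, 2.31, 2.06 and 2.08, a spread of 0.19 (SD) beside 0.54 against ASO-Ctr. FOSL2, at 17.3 to 22.9 CPM in ASO-L1 libraries and 4.32, 5.38, 6.26 and 5.96 CPM in sO-L1 libraries, was 3.70-fold higher with ASO-L1 (3.15 to 4.34; edgeR adjusted p = 5.76e-09), the 12th of all genes by p-value. Groups did not overlap for 4 of the 7 genes (JUN, JUND, FOSL1 and FOSL2), beside 32.1% of all genes.

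FOS averaged 34.8 ± 6.35 CPM in ASO-L1 libraries against 39.9 ± 9.12 CPM in sO-L1 libraries, where it was at 38.9, 27.3, 47.5 and 45.7 CPM, and the log2 difference of -0.17 (SE 0.079) was not called (edgeR adjusted p = 0.0879). It was called lower without replicate 2 (log2 -0.27, edgeR adjusted p = 0.0199) and without ASO-L1 replicate 2 (log2 -0.29, edgeR adjusted p = 0.00635), and also with no filter on low counts (edgeR adjusted p = 0.0428). JUNB, at 7.85, 4.66, 7.23 and 7.33 CPM with sO-L1, and FOSB, at 0.487, 0.641, 0.529 and 0.753 CPM, were not called (log2 0.064 and 0.20, edgeR adjusted p = 0.647 and 0.640).

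For this comparison the authors deposited a table of their own. The authors' deposited table gives log2 fold changes of 0.96 for JUN, 0.43 for JUND, 2.30 for FOSL1 and 1.87 for FOSL2. Their adjusted p-values in the authors' deposited table are 1.65e-08, 0.000164, 6.12e-09 and 2.77e-09. For FOS, JUNB and FOSB the authors' deposited table has -0.16, 0.088 and 0.13, with adjusted p = 0.466, 0.739 and 0.797.

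The last comparison sets the sense oligo sO-L1 against ASO-Ctr, and it shares samples with both others. edgeR called 0 of the 7 genes, where 0.290% of all genes were called, and 0 of the 7 had an unadjusted p under 0.05. Over all genes 0.0695% were called higher, 0.220% lower and 0.0232% past 2-fold, and 0 of the 7 genes were in any of these. DESeq2 also called 0, with no adjusted p for FOSB. The groups overlapped for all 7, whereas 3.23% of all genes had groups apart. The smallest unadjusted p was that of JUND, at a log2 difference of -0.13 (interval -0.26 to 0.0042; adjusted p = 0.714, edgeR). JUN differed by 0.10 (interval -0.044 to 0.25), FOS by -0.13 (-0.29 to 0.038), FOSL2 by -0.12 (-0.37 to 0.13) and FOSL1 by 0.29 (-0.14 to 0.72) on the log2 scale. JUNB differed by -0.011 (-0.23 to 0.21) and FOSB by -0.16 (-0.83 to 0.50). The JUN difference was positive in 4 of 4 replicate numbers (0.081 to 0.14), and those of FOS, FOSL2 and JUND were negative in 4 of 4.

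**Figure D3:**
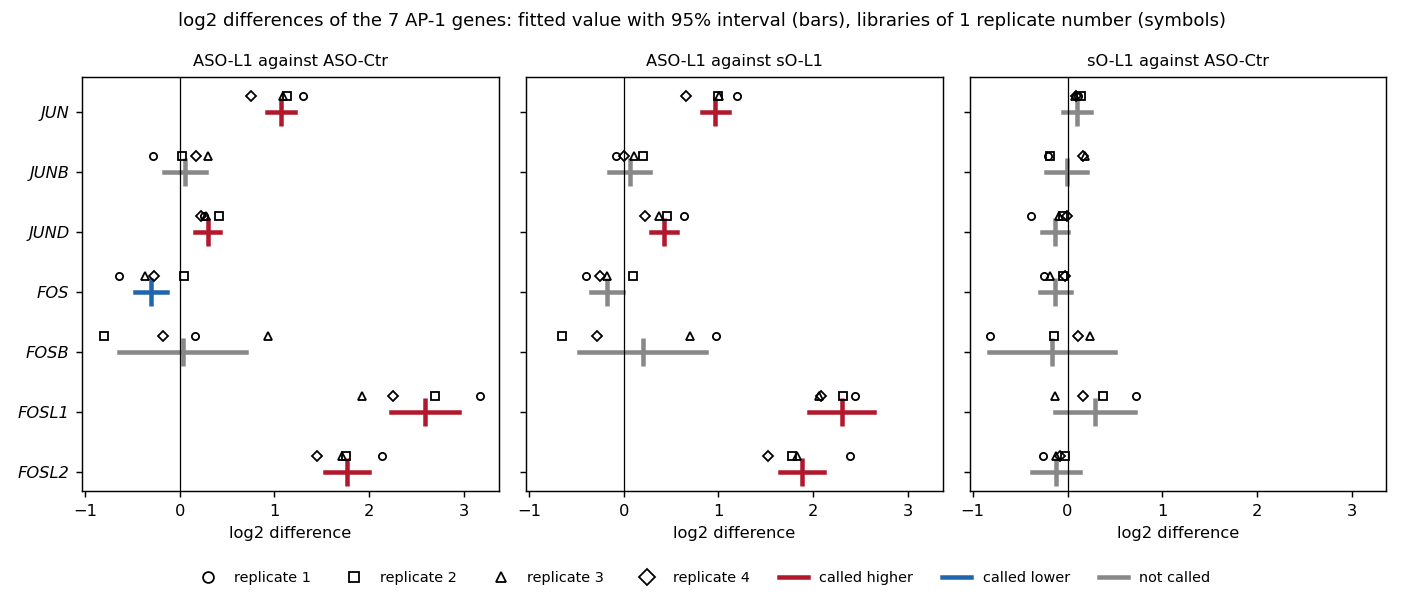
log2 differences (x axis) of the 7 AP-1 genes (y axis) in the 3 comparisons, each over the second group named; bars are fitted values with 95% intervals and open symbols are differences within a replicate number. Intervals of JUN, JUND, FOSL1 and FOSL2 lie above 0 in both comparisons of ASO-L1. Those of FOS lie below 0 in both, although FOS was not called against sO-L1. All 7 intervals include 0 for sO-L1 against ASO-Ctr.

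Levels of different genes were compared only after division by the length of annotated exons in GENCODE 29 (GRCh38), from 1820 bases for JUNB to 6794 bases for FOSL2. The annotation behind the counts may differ from this one, so length-scaled levels, shares and the order of genes are approximate, while the change of a ratio of 2 genes between groups does not depend on the lengths. The JUN group outweighed the FOS group in every library. JUN genes summed to 74.3 ± 7.91 CPM per kb with ASO-L1, 47.2 ± 2.84 with sO-L1 and 48.3 ± 4.79 with ASO-Ctr, and FOS genes to 18.3 ± 1.69 CPM per kb with ASO-L1, 15.1 ± 3.08 with sO-L1 and 16.4 ± 3.79 with ASO-Ctr (SD, n = 4 each). Summed over all 7 genes the level was 84.4 to 103.9 CPM per kb in ASO-L1 libraries, 54.2 to 67.2 in sO-L1 libraries and 53.8 to 71.6 in ASO-Ctr libraries.

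The order within the JUN group differed between the groups. JUN exceeded JUND in 4 of 4 ASO-L1 libraries, with a length-scaled ratio of 1.10 to 1.37, whereas JUND exceeded JUN in 4 of 4 sO-L1 libraries (ratio of JUN to JUND 0.750 to 0.882) and in 4 of 4 ASO-Ctr libraries (0.532 to 0.781). JUN made up 51.3 ± 2.22% of the JUN group's length-scaled level with ASO-L1, 41.3 ± 1.70% with sO-L1 and 37.8 ± 4.30% with ASO-Ctr. JUND made up 43.5 ± 2.48% with ASO-L1, 50.8 ± 1.73% with sO-L1 and 54.6 ± 3.47% with ASO-Ctr. JUNB held 4.22 to 6.04% in ASO-L1 libraries, 5.91 to 9.09% in sO-L1 libraries and 6.81 to 9.12% in ASO-Ctr libraries.

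Within the FOS group, FOS was the most abundant in all 12 libraries and held a smaller share with ASO-L1. It made up 64.7 ± 9.55% of the FOS group with ASO-L1, 89.2 ± 2.74% with sO-L1 and 90.4 ± 2.23% with ASO-Ctr. The share of FOSL1 was 18.3 ± 8.27% with ASO-L1, 4.62 ± 2.02% with sO-L1 and 3.32 ± 0.946% with ASO-Ctr, and that of FOSL2 was 16.3 ± 1.41% with ASO-L1, 5.47 ± 1.28% with sO-L1 and 5.51 ± 1.22% with ASO-Ctr. Between FOSL1 and FOSL2 the length-scaled levels overlapped with ASO-L1 (1.98 to 5.47 and 2.54 to 3.36 CPM per kb) and with sO-L1 (0.445 to 0.981 and 0.637 to 0.922 CPM per kb). With ASO-Ctr they did not, FOSL1 being the lower at 0.394 to 0.616 CPM per kb beside 0.762 CPM per kb or more for FOSL2. JUNB, at 2.96 to 4.31 CPM per kb with ASO-L1, overlapped both FOSL1 and FOSL2 there and lay above both with sO-L1 (2.56 to 4.31) and ASO-Ctr (2.91 to 4.96). FOSB held 0.700 ± 0.226% with ASO-L1, 0.746 ± 0.238% with sO-L1 and 0.807 ± 0.327% with ASO-Ctr. The ratio of FOSL1 plus FOSL2 to FOS ran from 0.345 to 0.878 in ASO-L1 libraries, 0.0850 to 0.157 in sO-L1 libraries and 0.0835 to 0.136 in ASO-Ctr libraries, so ASO-L1 stood apart from both. These shares restate the fold changes above on a common scale and carry no test of their own.

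**Figure D4:**
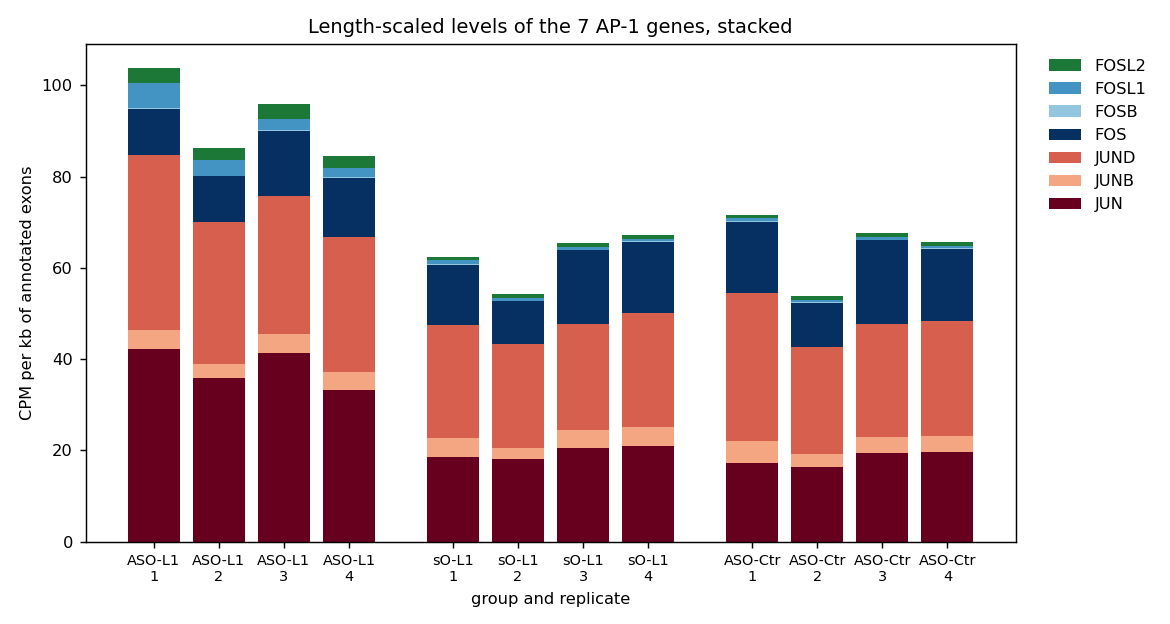
Length-scaled levels (y axis, CPM per kb of annotated exons) of the 7 AP-1 genes stacked in each library (x axis, group and replicate). The ASO-L1 bars reach 84.4 to 103.9 and the others 53.8 to 71.6, with taller JUN, FOSL1 and FOSL2 segments in ASO-L1.

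The genes most like each member across the 12 libraries were listed by Pearson correlation of log2 CPM. The libraries form 3 groups, so these values mostly carry the group differences, and they are given as a description. JUN was closest to VIM, an intermediate filament gene (r = 0.994), PRPF38A and EI24. FOSL2 was closest to PDCD11, EPHA2 and ZIC2 (r = 0.990 to 0.996), FOSL1 to PVRL4, AP1S1 and CTA-29F11.1 (r = 0.984 to 0.987), and JUND to C19orf52, SNHG6 and ITPRIPL2 (r = 0.951 to 0.961). FOS was closest to ZFP30, MYCN and LRRC41 (r = 0.898 to 0.920) and JUNB to ING2, SWSAP1 and RP11-425L10.1 (r = 0.882 to 0.914). No AP-1 gene was among the 3 closest to another. Between members, r ran from -0.458 (FOS and FOSL1) to 0.982 (JUN and FOSL2), with 0.918 for JUN and FOSL1.

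The next list holds other bZIP genes, many of which can pair with AP-1 proteins. Against ASO-Ctr 13 of 14 listed were tested (BATF had too few reads): 7 were called higher, 1 lower and 5 neither, where 21.2% of all genes were called higher and 23.1% lower, with a median log2 fold change of 0.37 beside 0.00 over all genes. Without the replicate block 5 were called higher. ATF3, a stress-induced partner of JUN, averaged 46.0 ± 14.4 CPM in ASO-L1 libraries against 12.5 ± 0.946 CPM in ASO-Ctr libraries (log2 1.83, SE 0.12, edgeR adjusted p = 1.63e-08). The small MAF gene MAFF was at 3.49 ± 0.610 CPM (ASO-L1) against 1.36 ± 0.269 CPM (ASO-Ctr), and MAFG, another small MAF gene, at 103.5 ± 27.5 CPM (ASO-L1) against 61.2 ± 7.32 CPM (ASO-Ctr), log2 changes of 1.37 and 0.74. BATF3, JDP2 and MAFK also rose, by 1.34, 0.37 and 0.25 on the log2 scale. The gene that fell was ATF2 (log2 -0.19, edgeR adjusted p = 0.00397). Against sO-L1, 7 rose and 2 fell, ATF2 (log2 -0.29) and MAF (log2 -0.30, edgeR adjusted p = 0.0492), while ATF3, MAFG and MAFF rose by 1.88, 0.65 and 1.33 on the log2 scale. Over all genes 21.1% were higher and 22.9% lower in that comparison. Only 1 bZIP gene was called lower against sO-L1 with DESeq2 or its size factors, with no filter, without the block, and in all leave-outs except those of sO-L1 replicate 1, ASO-Ctr replicate 1 (2 each) and ASO-L1 replicate 3 (3).

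Of 22 genes of the MAP kinase cascade upstream of AP-1, 3 rose, 8 fell and 11 were not called against ASO-Ctr (median log2 fold change -0.10). Of all genes 44.3% were called there, 21.2% higher and 23.1% lower. Against sO-L1, 3 rose and 4 fell, where 44.0% of all genes were called, 21.1% higher and 22.9% lower. MAP2K1, a kinase of ERK, averaged 44.2 ± 6.54 CPM in ASO-L1 libraries against 66.4 ± 2.59 CPM in ASO-Ctr libraries (log2 -0.59, SE 0.072, edgeR adjusted p = 6.49e-06), and fell against sO-L1 too (log2 -0.63). MAPK8, which encodes JNK1, the kinase that phosphorylates JUN, was at 55.8 ± 4.21 CPM (ASO-L1) against 66.3 ± 4.09 CPM (ASO-Ctr) (log2 -0.25, edgeR adjusted p = 0.000731), and the related MAPK10 was at 0.311 ± 0.0697 CPM (ASO-L1) against 0.846 ± 0.273 CPM (ASO-Ctr) (log2 -1.44). The MAPK10 value rests on 41 reads over all ASO-L1 libraries and 115 over all ASO-Ctr libraries, and sO-L1 lay between at 0.514 ± 0.120 CPM. RPS6KA2, an ERK-activated kinase, fell by 0.42 on the log2 scale against ASO-Ctr. It was at 11.6 ± 1.25 CPM (ASO-L1), 11.9 ± 1.09 CPM (sO-L1) and 15.5 ± 0.654 CPM (ASO-Ctr). It was thus about as low with the sense oligo, although it was not called in sO-L1 against ASO-Ctr. The 3 that rose against ASO-Ctr were MAPK14 (p38 alpha), RPS6KA1 and MAP3K1, by 0.20, 0.16 and 0.17 on the log2 scale. Of such rises 1 was called without the block or without replicate number 3, and 2 without replicate number 2 or without ASO-Ctr replicate 2. MAPK3 and MAPK9 were not called (log2 -0.17 and 0.11). Against sO-L1, MAP2K5 and MAP3K5 fell (log2 -0.38 and -0.52) and MAP2K2 rose (log2 0.20), each a kinase of a MAP kinase module. There 1 rise was called without replicate number 3 or without ASO-L1 replicate 3. These are RNA levels, and kinase activity was not measured.

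Among 12 tested of 13 transcription factors that act on the FOS and JUN promoters, 4 were higher, 3 lower and 5 uncalled against ASO-Ctr (median log2 fold change 0.064), and 6 rose and 3 fell against sO-L1. Of all genes 44.3% were called against ASO-Ctr (21.2% higher, 23.1% lower) and 44.0% against sO-L1 (21.1% higher, 22.9% lower). Without the replicate block 3 rises were called in each comparison. ELK4, a partner of serum response factor, averaged 57.5 CPM in ASO-L1 libraries against 34.4 CPM in ASO-Ctr libraries (log2 0.74, SE 0.11, edgeR adjusted p = 5.94e-05). ELK3 of the same group and ATF1, which binds the cyclic AMP response element, rose by 0.48 and 0.42 on the log2 scale, and MEF2D by 0.23. MKL1, STAT3 and CREB1 fell by 0.36, 0.18 and 0.20 on the log2 scale. SRF itself was not called against ASO-Ctr (log2 0.036, edgeR adjusted p = 0.520) and was called slightly higher against sO-L1 (log2 0.14, edgeR adjusted p = 0.0111).

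Another list holds genes that limit AP-1 or its kinases. Of 17 phosphatases, ubiquitin ligases and mRNA decay factors, 11 were called higher, 2 lower and 4 neither in ASO-L1 against ASO-Ctr, with a median log2 fold change of 0.26, and the counts against sO-L1 were 11 higher and 2 lower. Of all genes 21.2% were higher and 23.1% lower against ASO-Ctr, and 21.1% and 22.9% against sO-L1, and without the block 9 of the list were higher in each comparison. DUSP5, a phosphatase of ERK, averaged 19.9 ± 3.72 CPM in ASO-L1 libraries against 9.47 ± 0.428 CPM in ASO-Ctr libraries (log2 1.05, SE 0.093, edgeR adjusted p = 1.97e-07). DUSP4 was at 4.16 ± 1.93 CPM (ASO-L1) against 1.15 ± 0.383 CPM (ASO-Ctr) (log2 1.81) and DUSP8 at 12.3 ± 4.46 CPM (ASO-L1) against 5.15 ± 0.669 CPM (ASO-Ctr) (log2 1.21), both MAP kinase phosphatases. ZFP36L2, a factor of the family that destabilises AU-rich mRNAs such as that of FOS, rose by 0.54 on the log2 scale. The 2 that fell were RFWD2 (log2 -0.42), also called COP1, and DET1 (log2 -0.44), which act together in a ubiquitin ligase that removes JUN protein.

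Reported AP-1 target genes formed the last list. Of 28, 9 lay under the filter on low counts, among them MMP1, MMP3, IL8 and AREG, and 19 were tested. Against ASO-Ctr 12 were higher, 2 lower and 5 uncalled (median log2 fold change 0.55), where 21.2% of all genes were higher and 23.1% lower. SPP1, the secreted protein osteopontin, was at 443 ± 56.5 CPM (ASO-L1) against 188 ± 53.2 CPM (ASO-Ctr) (log2 1.27, SE 0.087, edgeR adjusted p = 1.98e-08), and TIMP1, an inhibitor of metalloproteinases, at 21.3 ± 1.34 CPM (ASO-L1) against 14.5 ± 0.492 CPM (ASO-Ctr) (log2 0.55). VIM rose by 1.78 on the log2 scale. The 2 that fell were MT2A, a metallothionein (log2 -0.26), and CCND1, cyclin D1 (log2 -0.12, edgeR adjusted p = 0.0424). Of such falls 0 were called without the replicate block, and 1 with DESeq2, with no filter, without replicate number 2 or 3, without ASO-L1 replicate 2 or 3, without sO-L1 replicate 2, 3 or 4 and without ASO-Ctr replicate 2, 3 or 4. Against sO-L1, 11 rose and 1 fell, with IL11, a cytokine, at 1.96 ± 1.51 CPM in ASO-L1 libraries against 0.280 ± 0.195 CPM in sO-L1 libraries (log2 2.69); the 1 that fell was MT2A (log2 -0.30). A gene that passed the filter only through the group where it is high had to differ, so these counts over tested genes do not describe the whole list. For sO-L1 against ASO-Ctr, SPP1 was the only gene of the 5 lists to be called by edgeR (258 ± 57.7 CPM in sO-L1 libraries against 188 ± 53.2 CPM in ASO-Ctr libraries, log2 0.46, adjusted p = 0.0247). That call was lost without the replicate block, without replicate number 2 or 3, without sO-L1 replicate 2, 3 or 4 and without ASO-Ctr replicate 1, 2 or 3. Over the lists of bZIP partners, kinases, transcription factors, limiting genes and targets 0, 2, 1, 1 and 3 genes had an unadjusted p under 0.05.

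**Figure D5:**
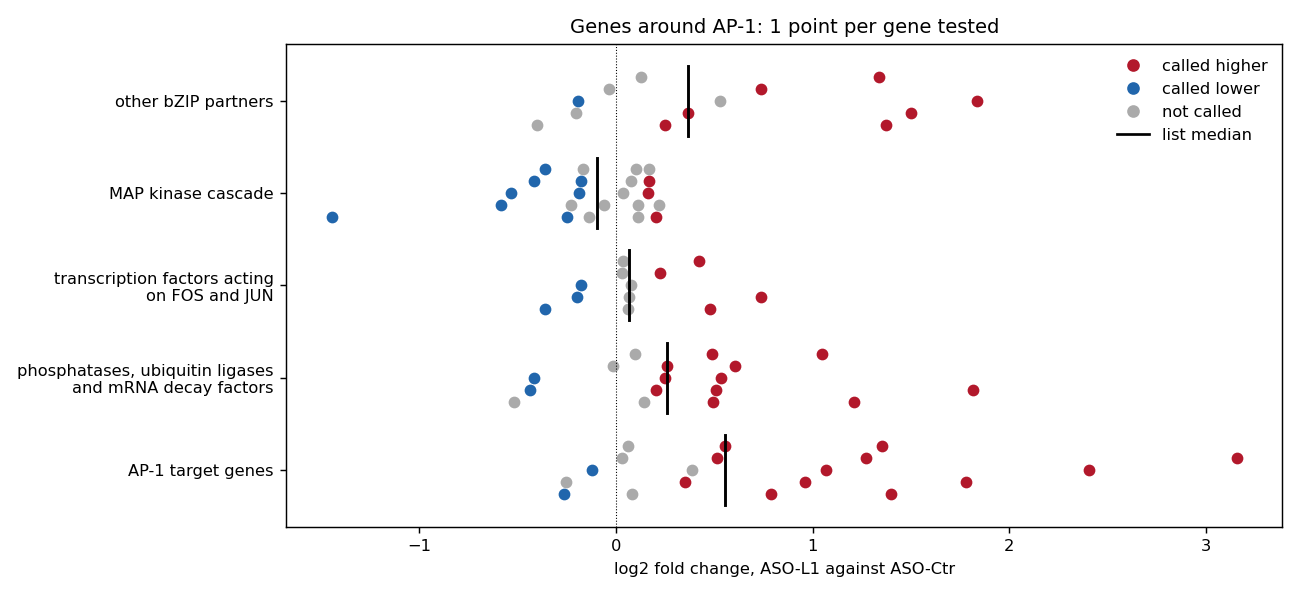
log2 fold change of ASO-L1 against ASO-Ctr (x axis) for each gene tested in 5 lists around AP-1 (y axis); colours give the edgeR call and black bars the list medians. Medians lie at 0.37 for bZIP partners, -0.10 for kinases, 0.064 for transcription factors, 0.26 for limiting genes and 0.55 for targets.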

How the data were processed

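The 12 libraries are directional poly(A) RNA-seq. The deposited table used here gives raw counts for each gene after removal of duplicates by the authors, per the labels, which compresses abundant genes. The submitters' processing notes list hg19, Trim Galore 0.4.0, TopHat2 2.0.13, featureCounts and Subread 1.5.0. Annotation and strand setting: not given in the sources used here. A deposited table of log2 values, batch-corrected by the authors, was not used. The authors' deposited comparison (ASO-L1 over sO-L1) supplied log2 fold changes and each adjusted p-value quoted from it. Its deposited score columns were not used.

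The test on counts was that of edgeR 4.0.16 under R 4.3.3 (TMM, two-sided quasi-likelihood F-tests, genes kept by filterByExpr at min.count 10), fitting group and replicate number to the 12 libraries together. CPM are TMM-scaled, and differences within a replicate number use log2 CPM with a prior count of 2. The replicate numbers come from the titles. Over 10549 genes averaging 200 or more counts, residuals of the 12 pairs of libraries with the same number correlated at 0.216 to 0.725, against a median of -0.223 for other pairs, which met the threshold of 0.1 for pairing. Replicates differed by more than counting error (3.00 to 29.0 chi-squared units per gene, for pairs summing to 20 counts or more).

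Members and lists were chosen with earlier results of these data known. Named were the 7 members, up to 4 called genes per list and comparison by smallest adjusted p, and for each member of at least 1 CPM the 3 genes of highest correlation. Where 5 or fewer genes of a list were called in 1 direction they were named after their values were seen, as were pluripotency markers, uncalled genes, low target genes and overlapping genes. Some listed genes are counted but not reported here by name. Alternatives were DESeq2 1.42.0, its size factors, no filter, no block, and leaving out each replicate number or library. The fit was tested on simulated data.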

Additional observations from a re-analysis of the deposited data

How the results depend on the processing

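Across 20 alternatives, 399 of 420 log2 fold changes of the 7 genes kept their direction and their side of the threshold, 1 lost its call, 3 gained one and 17 changed sign. The number of members called in ASO-L1 was 5 relative to ASO-Ctr (5 in each leave-out, 4 to 5 otherwise) and 4 relative to sO-L1 (4 to 5 in both kinds of alternative). In sO-L1 relative to ASO-Ctr it was 0 throughout. Without the replicate block, 4 members were called against ASO-Ctr, FOS losing its call (log2 -0.33, adjusted p = 0.190), and the block changed no other call among the 7. JUN, FOSL1, FOSL2 and JUND kept their calls against ASO-Ctr and sO-L1 under all 20 alternatives. With replicates or libraries left out, log2 fold changes against ASO-Ctr were 2.39 to 2.79 for FOSL1, 1.64 to 1.88 for FOSL2 and 0.26 to 0.34 for JUND. All 17 changes of sign were in genes that were not called, FOSB and JUNB, when a replicate or library was left out. The ranges were -0.26 to 0.32 for FOSB and -0.028 to 0.17 for JUNB against ASO-Ctr, -0.068 to 0.50 for FOSB against sO-L1, and -0.36 to 0.065 for FOSB and -0.083 to 0.077 for JUNB in sO-L1 against ASO-Ctr. For sO-L1 against ASO-Ctr, edgeR called 50 of all genes, against 95 with DESeq2, 141 with no filter, 17 without the block and 10 to 410 with replicates or libraries left out (410 without ASO-L1 replicate 1). The cause was not tested. In that comparison the kinase list gave 0 or 1 calls, the limiting genes 0 or 1 and the targets 0 to 2, where the call of SPP1 was lost without the block (0 calls). The kinase list against sO-L1 gave 7 calls, 5 to 11 in leave-outs (11 without ASO-L1 replicate 4) and 5 to 7 otherwise. All members passed the filter, so the exact tests planned for members under it had no use. Reads per library limit FOSB and the control level of FOSL1.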
